A study of Homo sapiens with 4 samples.

Results

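FGFR2, MAP3K7, TSC2, SLK and STK3 are 5 genes of growth and stress signalling, and every cassette exon listed for them in a splicing comparison of HEK293T clones is described here. Members were found by gene symbol in the authors' deposited table of skipped exons, which gave 22 events out of 31408. In a cassette exon event, an exon is kept between its neighbours in some messages and left out of others. The 22 events cover 21 exons, since 1 exon of TSC2 is listed with 2 alternative neighbours. TSC2 had 10 events, MAP3K7 and STK3 had 4 each, FGFR2 had 3 and SLK had 1. The genes were put together with values of this comparison already known, so the differences below are a description and carry no test of their own.

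HEK293T cells are a human line of embryonic kidney origin. The series holds 4 strand-specific RNA libraries made after removal of ribosomal RNA. Each came from a clone of 1 sorted cell: 2 clones with the genotype WT and 2 with the genotype RBFOX2 KO. All 4 clones went through the same transfection, in which PX459 carried Cas9 and a second plasmid carried guides flanking RBFOX2, and the genotypes were then read by PCR. RBFOX2 (RBM9) is a splicing regulator that recognises GCATG in RNA and changes the use of nearby exons. The table gives a difference in inclusion level (how much of the junction signal, per effective length, comes from the form with the exon, on a scale of 0 to 1) as a first set of libraries minus a second set. Nothing in the labels or the header says which set is wild type, so a positive difference is called higher in the first set and is not stated as a gain or a loss on knockout. Junction counts and inclusion levels of single libraries were left unused, since no column name ties them to a clone of the labels. With those columns unused, the spread between libraries was not examined, and whether coverage was sufficient to see a change was not assessed for any of the 22 events. The targeted gene had 0 events, which leaves the knockout unchecked here, and the table holds no expression level against which the cell line's markers could be read.

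The 5 proteins act in several pathways of growth and stress signalling. FGFR2 is a receptor tyrosine kinase for fibroblast growth factors, with immunoglobulin-like loops outside the cell that bind the ligand. MAP3K7, better known as TAK1, is the kinase that passes TGF-beta and inflammatory signals to the JNK, p38 and NF-kappaB pathways together with its TAB partners. TSC2, or tuberin, forms a complex with TSC1 that inactivates the GTPase RHEB and so restrains mTORC1. STK3, or MST2, is the kinase at the head of the Hippo pathway, and SLK is a related STE20 kinase of the cytoskeleton. Alternative exons of FGFR2, MAP3K7, TSC2 and SLK are known from work on epithelial and mesenchymal cells, where RBFOX proteins are among the regulators.

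A selection of exons of FGFR2, MAP3K7, SLK and TSC2, each whole and in coding sequence, is printed first. Their reading frame and motif content can so be seen beside the values. None of these exons passed the limits given below, and the 87-nt STK3 exon that passed is not printed. Sequences are those of GENCODE 29 transcripts, 5′ to 3′ on the sense strand, and capitals mark GCATG. Positions are those of the deposited table, 1-based, in hg19, the build named in the submitters' processing notes. The first is the FGFR2 exon for the first immunoglobulin-like loop (chr10:123324952-123325218, minus strand) and the next is the short FGFR2 exon that follows it (chr10:123324016-123324093, minus strand).
FGFR2, 267-nt exon: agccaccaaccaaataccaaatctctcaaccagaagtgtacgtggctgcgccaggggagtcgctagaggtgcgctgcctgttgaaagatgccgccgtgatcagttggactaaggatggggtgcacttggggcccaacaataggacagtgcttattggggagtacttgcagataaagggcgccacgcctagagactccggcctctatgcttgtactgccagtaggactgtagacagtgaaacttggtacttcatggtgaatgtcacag
FGFR2, 78-nt exon: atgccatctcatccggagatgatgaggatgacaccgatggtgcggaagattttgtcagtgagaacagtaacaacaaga

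The alternative exons of MAP3K7 (chr6:91254271-91254351, minus strand), SLK (chr10:105770574-105770666, plus strand) and TSC2 (chr16:2127599-2127727, plus strand) are shown as exons of whole codons with annotated protein-coding forms both with and without them.
MAP3K7, 81-nt exon: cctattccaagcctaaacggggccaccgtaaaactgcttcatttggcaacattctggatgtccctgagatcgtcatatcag
SLK, 93-nt exon: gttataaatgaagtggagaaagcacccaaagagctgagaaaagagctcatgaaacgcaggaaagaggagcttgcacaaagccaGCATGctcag
TSC2, 129-nt exon: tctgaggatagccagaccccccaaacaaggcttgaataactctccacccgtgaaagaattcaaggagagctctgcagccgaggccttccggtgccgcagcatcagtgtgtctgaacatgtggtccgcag

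Besides the SLK exon, GCATG was found in a MAP3K7 exon (chr6:91269795-91269933, minus strand) and a TSC2 exon (chr16:2110671-2110814, plus strand), both shown for the motif.
MAP3K7, 139-nt exon: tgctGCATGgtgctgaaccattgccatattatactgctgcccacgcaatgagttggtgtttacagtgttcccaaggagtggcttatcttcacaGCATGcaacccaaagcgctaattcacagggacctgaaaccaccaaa
TSC2, 144-nt exon: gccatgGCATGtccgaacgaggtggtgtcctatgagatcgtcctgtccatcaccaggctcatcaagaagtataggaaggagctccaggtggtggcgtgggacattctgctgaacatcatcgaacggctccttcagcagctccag

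GCATG occurred in 3 of the 21 exons on the sense strand. The SLK exon holds it once, from base 84 of 93, close to the end of the exon. In the 139-nt exon of MAP3K7 it occurs at bases 5 and 94, the first time as TGCATG, and in the 144-nt exon of TSC2 it starts at base 7. Of all exons in the table within 10% of the same length, GCATG was found in 7.79% for the SLK exon, 12.8% for the MAP3K7 exon and 13.6% for the TSC2 exon. Over the 24788 exons of the table with a sequence the share was 11.6%, and for the 21 exons it was 14.3%. The letters CATGC, which are the motif on the opposite strand, were found in 3 exons; in SLK and MAP3K7 they overlap a GCATG, and the other is the 170-nt exon of FGFR2. Flanking introns were not searched, because an hg19 genome was not used here.

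To be called, an event needed a deposited false discovery rate (FDR) under 0.05 and a difference in inclusion of 0.1 or more in either direction. Of the 22 events, 1 passed, an 87-nt exon of STK3, against 5.15% of the events in the whole table. It was higher in the second set, the direction in which 2.38% of the table's events passed. With the first set higher 0 of the 22 passed, against 2.77% of the table. Counted by exon, 1 of 21 passed, against 5.73%. That 1 event also passed at an FDR under 0.01 (3.49% of the table) or 0.1 (6.19%). It passed as well with no minimum difference (6.12%), with a minimum of 0.2 (3.54%) and after a Bonferroni correction (1.5%). These limits reuse the same deposited values, and the looser ones are met by construction, so they add no support. Of the 18 events in the other 4 genes, the 267-nt exon of FGFR2 alone had an unadjusted p-value under 0.05 in the authors' deposited table. Differences of 0.1 or more in size made up 3 of the 22 events, and 31.5% of the whole table. The median absolute difference was 0.0275 over the 22 events and 0.048 over the table. Of the 22, 8 (36.4%) carried a p-value of 1, as did 51.4% of the table. The first set had the higher inclusion in 14 events and the second set in 8, and in the whole table the first set was the higher in 52.6%. Those of the 22 events with no FDR given below had an FDR of 1. The 5 genes thus held mostly small differences and 1 large one.

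**Figure D1:**
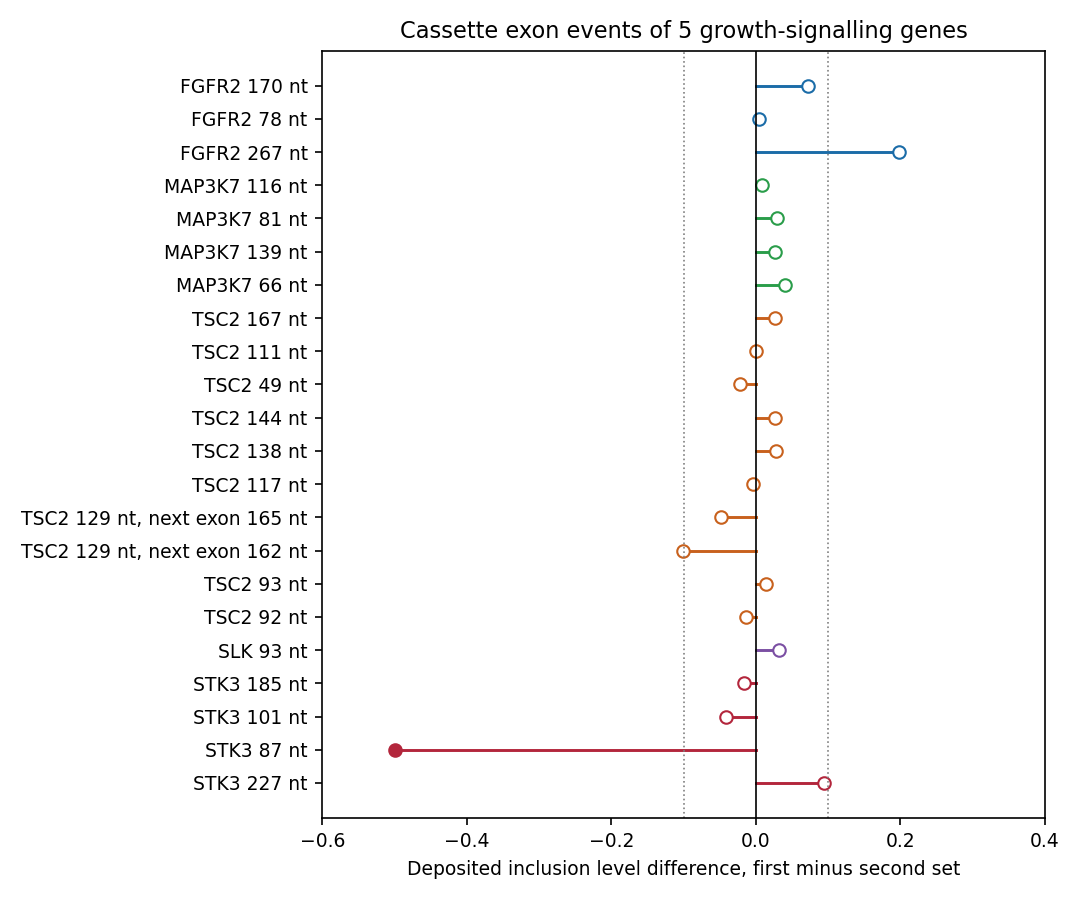
Inclusion level difference of each of the 22 events (x axis, first minus second set of libraries, as deposited), grouped by gene and labelled by exon length; the filled point passed both limits, open points did not, and dotted lines mark a difference of 0.1 in either direction. The 87-nt exon of STK3 stands at -0.5, the 267-nt exon of FGFR2 at 0.198, and the remaining points lie between -0.101 and 0.095.

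STK3 gave the passing event and also the event nearest to it in structure. The 87-nt exon (ENSG00000104375; chr8:99733302-99733388, minus strand) differed by -0.5 in the authors' deposited table (p-value 2.11e-15, FDR 1.41e-12), so that its inclusion was higher in the second set. An absolute difference of exactly 0.5 was common in the authors' deposited table, with 672 events at 0.5 beside 2 at 0.499 and 0 at 0.501. Of those 672, 539 had a p-value of 1, 44 passed, and 3, the STK3 exon among them, had a p-value of 2.11e-15 or less in the authors' deposited table. The mean of a pair of inclusion levels shifts by 0.5 when 1 of them goes from 0 to 1. Whether the STK3 value rests on 1 clone or on both clones of a set was not tested, because the levels of single libraries were not used. The next STK3 exon upstream, of 227 nt (chr8:99734971-99735197, minus strand), was higher in the first set by 0.095 in the authors' deposited table (p-value 0.0417, FDR 0.363) and did not pass.

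These STK3 events are not independent measurements. The junction that skips the 87-nt exon, from the 227-nt exon to a 165-nt exon over 15431 nt, also counts as inclusion of the 227-nt exon. Both forms compared for the 87-nt exon therefore contain the 227-nt exon. The protein-coding transcripts STK3-201 and STK3-217 of GENCODE 29 have neither, and join the 115-nt exon before them directly to the 165-nt exon. In GENCODE 29 the 227-nt and 87-nt exons are exons 5 and 6 of 10 in STK3-202, a transcript annotated for nonsense-mediated decay, the pathway that degrades messages with an early stop. Its reading frame runs 153 nt into the 227-nt exon and meets a stop codon there, at bases counted from 154, so the 87-nt exon lies behind the stop and codes for 0 nt. Its length is divisible by 3, corresponding to 29 codons, but it is not read as such in that transcript.

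The other STK3 events also concern exons outside the coding form. A 101-nt exon (chr8:99650688-99650788, minus strand) is exon 9 of STK3-202 and lies between introns of 67906 and 42290 nt, the longest around any of the 21 exons. Its difference was -0.041 in the authors' deposited table (p-value 0.461). Another exon, of 185 nt (chr8:99607089-99607273, minus strand), matched a retained-intron transcript, STK3-209, and differed by -0.016 in the authors' deposited table (p-value 1). All 4 cassette exons of STK3 were thus found in transcripts of the gene that are not annotated as protein-coding.

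**Figure D2:**
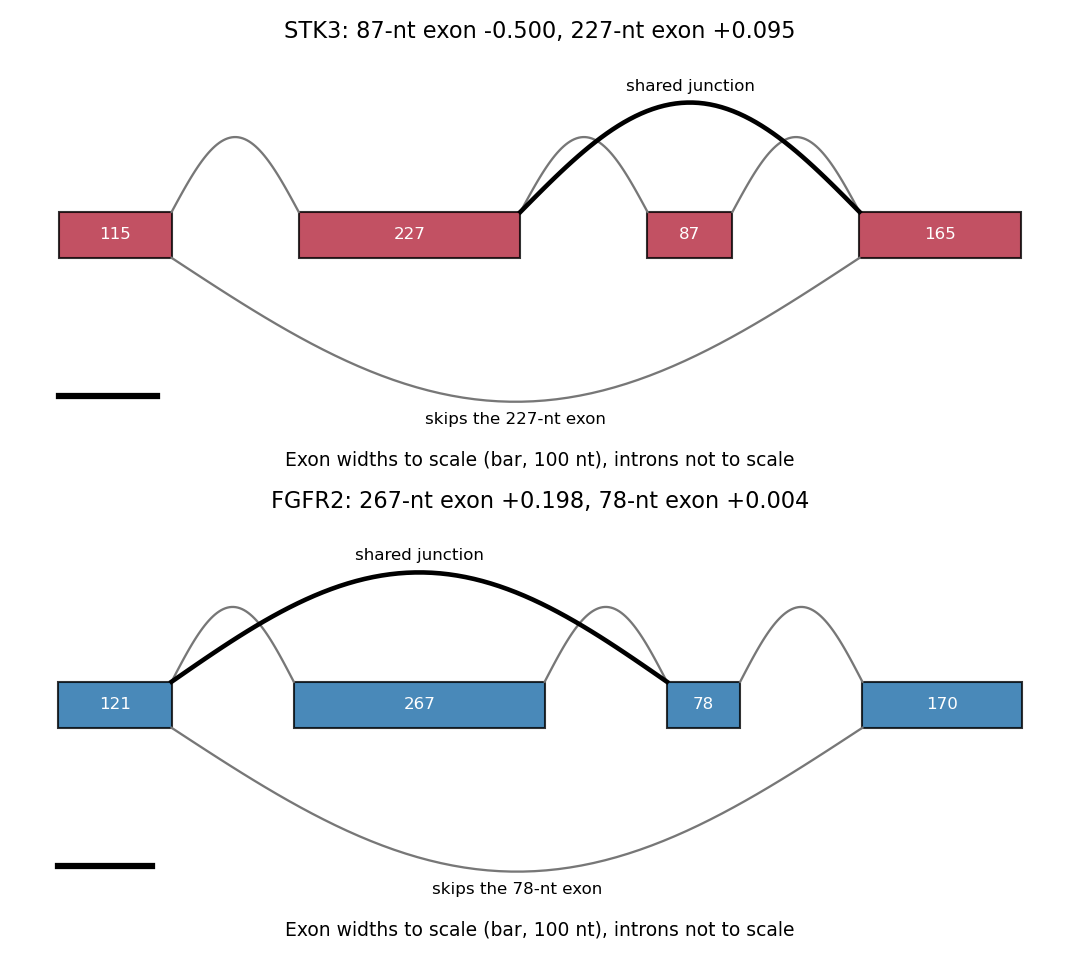
Exons (boxes, widths to scale, length in nt) and junctions (arcs; introns not to scale) of the paired events in STK3 and FGFR2, 5′ to 3′ from left to right; the heavy arc is the junction read as skipping of one exon and as inclusion of the other. In STK3 the exon skipped by the heavy arc differs by -0.5 and the exon included by it by 0.095, with opposite signs. In FGFR2 the values for the skipped and the included exon are 0.198 and 0.004. The first FGFR2 box is drawn as the 121-nt form listed with the 267-nt exon, while the 78-nt event lists a 259-nt form of that box.

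FGFR2, the receptor of the group, had the largest difference that did not pass. Its 267-nt exon (ENSG00000066468), exon 3 of 18 in FGFR2-215, was higher in the first set by 0.198 in the authors' deposited table (p-value 0.0351, FDR 0.318). It adds 89 codons for the first immunoglobulin-like loop, and GENCODE 29 has 5 protein-coding transcripts of FGFR2 that join its neighbours directly. The 78-nt exon that follows, of 26 codons, is known as the acid box exon. In the authors' deposited table it differed by 0.004 (p-value 0.264). The junction of 29129 nt that skips the 267-nt exon is an inclusion junction of the 78-nt event. Both forms listed for the 78-nt event therefore lack the first loop. Its other inclusion junction, of 13042 nt to the 170-nt exon, is also open to messages that keep that loop. Reads from such messages can enter the inclusion level of the 78-nt exon, and their share was not examined.

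The third FGFR2 exon, of 170 nt (chr10:123310804-123310973, minus strand), encodes part of the second immunoglobulin-like loop, which takes part in ligand binding. The authors' deposited table gave it 0.072 (p-value 1). Its length is not divisible by 3. Removing it from FGFR2-215 would bring a stop codon 47 nt past the new junction, with 12 junctions still to follow, and GENCODE 29 has 0 transcripts that skip it in this way. FGFR2 is best known for the mutually exclusive exons IIIb and IIIc of the third loop. Neither is among its 3 events by length, and the choice between them was not analysed here.

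MAP3K7 had 4 events, and each was higher in the first set by a small amount. The 81-nt exon (ENSG00000135341), exon 12 of 17 in MAP3K7-204, adds 27 codons between the kinase domain and the C-terminal part that binds TAB2 and TAB3. In the authors' deposited table it differed by 0.029 (p-value 0.823). It lies between exons of 130 and 65 nt and introns of 2625 and 8150 nt, and 2 annotated protein-coding transcripts include it while 3 skip it.

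The 116-nt exon of MAP3K7 (chr6:91228166-91228281, minus strand) is the last but one, and 3 protein-coding transcripts include it while 2 skip it. Without it the frame shifts and ends 30 nt into the last exon, which changes the C-terminus with 0 junctions behind the stop. For this exon the authors' deposited table gave 0.008 (p-value 0.648). The remaining MAP3K7 exons, of 139 nt (exon 5) and 66 nt (exon 3; chr6:91278277-91278342, minus strand), encode parts of the kinase domain and have no annotated skipping form. Loss of the 66-nt exon would keep the frame and remove 22 codons, while loss of the 139-nt exon would bring a stop 29 nt past the junction, with 11 junctions to follow. The 139-nt exon with GCATG differed by 0.027 in the authors' deposited table (p-value 0.483). For the 66-nt exon the authors' deposited table gave 0.041 (p-value 0.34). None of the 4 MAP3K7 events had an unadjusted p-value under 0.05 in the authors' deposited table, and 0 passed.

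SLK had 1 event, the 93-nt exon (ENSG00000065613), which is exon 13 of 19 in SLK-202 and adds 31 codons to the coiled-coil part of the kinase. The protein-coding transcript SLK-201 lacks it, and its 18 exons have the lengths of the other 18 exons of SLK-202. The SLK exon differed by 0.032 in the authors' deposited table (p-value 0.0849, FDR 0.612), with the first set higher. It lies between exons of 180 and 130 nt and introns of 2459 and 7251 nt, and is the member in which an annotated coding cassette and an exonic GCATG coincide, and its event did not pass.

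TSC2 had the most events, 10, with a median absolute difference of 0.024 and 0 passing. None of these had an unadjusted p-value under 0.05 in the authors' deposited table, and 6 had a p-value of 1. The TSC2 exon with the most annotated skipping forms, of 129 nt (ENSG00000103197), is exon 26 of 42 in TSC2-201 and adds 43 codons after a 95-nt exon. It is listed with 2 forms of the next exon, of 165 and 162 nt, whose acceptor sites lie 3 nt apart. With the 165-nt form the difference was -0.048 in the authors' deposited table (p-value 0.11, FDR 0.727). With the 162-nt form the authors' deposited table gave -0.101 (p-value 0.0991, FDR 0.683). Both events had the second set higher and neither passed. They share the junction from the 95-nt exon to the 129-nt exon, so they are not independent measurements. The larger one met the limit on the difference and missed that on the FDR. GENCODE 29 has protein-coding transcripts for all 4 combinations: 4 and 2 that include the exon, 6 and 5 that skip it, with the 165-nt and 162-nt form respectively.

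The other TSC2 exons lie along the whole gene, and 2 of them, the 167-nt and the 111-nt exon, have an annotated protein-coding form that skips them, each in 1 transcript (TSC2-203 and TSC2-207). The 167-nt exon 2 (chr16:2098588-2098754, plus strand) carries the start codon, with 138 nt of coding sequence, and differed by 0.026 in the authors' deposited table (p-value 0.408). The 144-nt exon with GCATG differed by 0.026 in the authors' deposited table (p-value 0.464). The 138-nt exon after it (chr16:2111872-2112009, plus strand) differed by 0.028, again in the authors' deposited table (p-value 1). These neighbours share a junction of 2997 nt, from a 127-nt exon, which skips the 144-nt exon and counts as inclusion of the 138-nt exon. Removal of either would keep the frame, with 48 and 46 codons lost. The remaining exons, of 111 nt (chr16:2103343-2103453), 49 nt (chr16:2106197-2106245), 117 nt (chr16:2115520-2115636), 93 nt (chr16:2135231-2135323) and 92 nt (chr16:2138049-2138140), lie on the plus strand. Their differences in the authors' deposited table ran from -0.022 to 0.014, each with a p-value of 1. The 111-nt, 117-nt and 93-nt exons hold 37, 39 and 31 whole codons and keep the frame on removal. The 49-nt exon was matched with its listed neighbours only in TSC2-206, a transcript annotated for nonsense-mediated decay. Removal of the 92-nt exon 40 would shift the frame and bring a stop 20 nt past the junction. That exon lies between the shortest introns of the set, 106 and 87 nt.

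A length divisible by 3 was found in 12 of the 21 exons (57.1%) and in 40.7% of the table's exons; the difference was not tested. Of the 15 exons that are wholly coding in a protein-coding transcript, 11 keep the frame and the original stop when removed and 4 bring an earlier stop. The median length was 116 nt, beside 117 nt for the table. A transcript that joins the flanking exons directly is annotated for 13 of the 22 events, 12 of them with a protein-coding one. The intron before the exon had a median of 2127.5 nt and the intron after it 2608 nt, beside 2246 and 2095 nt in the table. The genes differ in this respect: flanking introns ran from 858 to 29129 nt in FGFR2, from 986 to 67906 nt in STK3, from 695 to 8150 nt in MAP3K7 and from 87 to 5709 nt in TSC2. The effective length that divides inclusion reads reached its ceiling of 188 nt in 14 of the 22 events, and the lowest was 143 nt, for the 49-nt exon of TSC2. The longest introns of the set are thus those of STK3 and FGFR2.

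**Figure D3:**
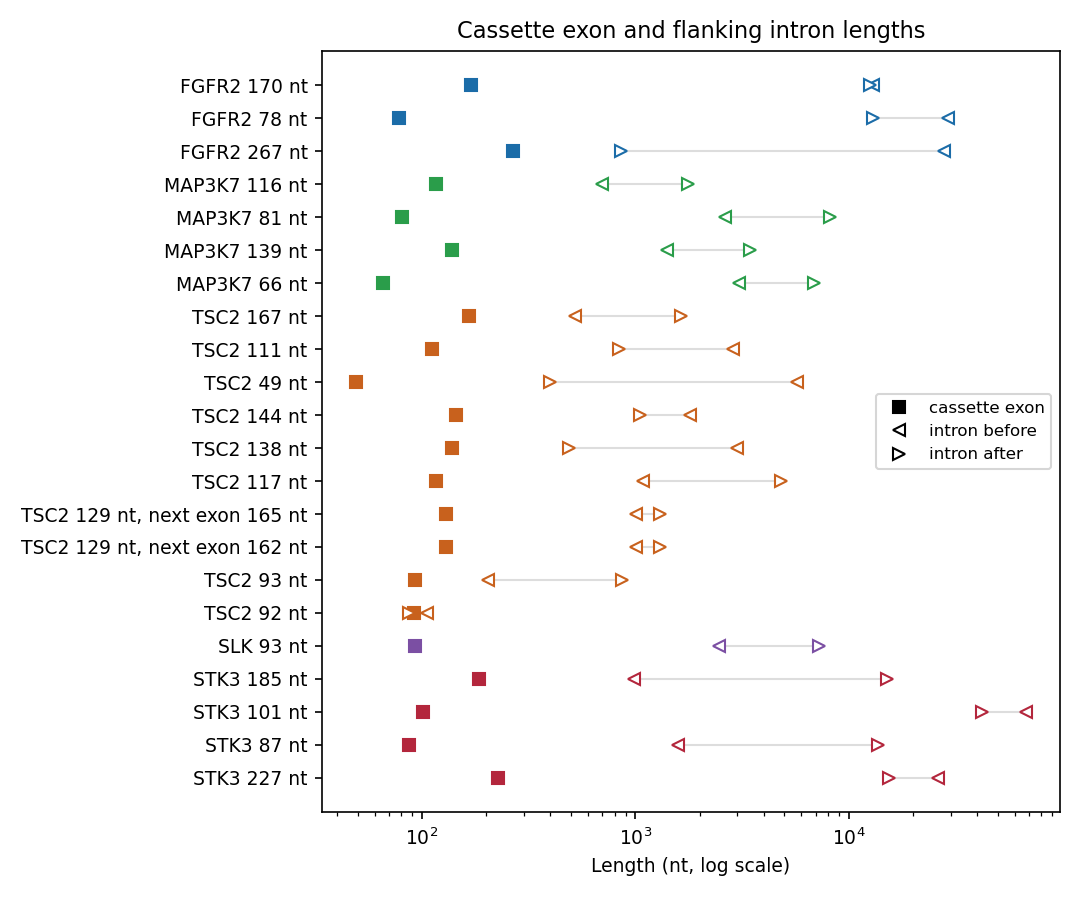
Length of each cassette exon (filled squares) and of the introns before and after it in the transcript (open triangles pointing left and right), in nt on a log scale, for the 22 events. Exons lie between 49 and 267 nt, while flanking introns reach from 87 nt around the 92-nt exon of TSC2 to 67906 nt before the 101-nt exon of STK3.

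**Figure D4:**
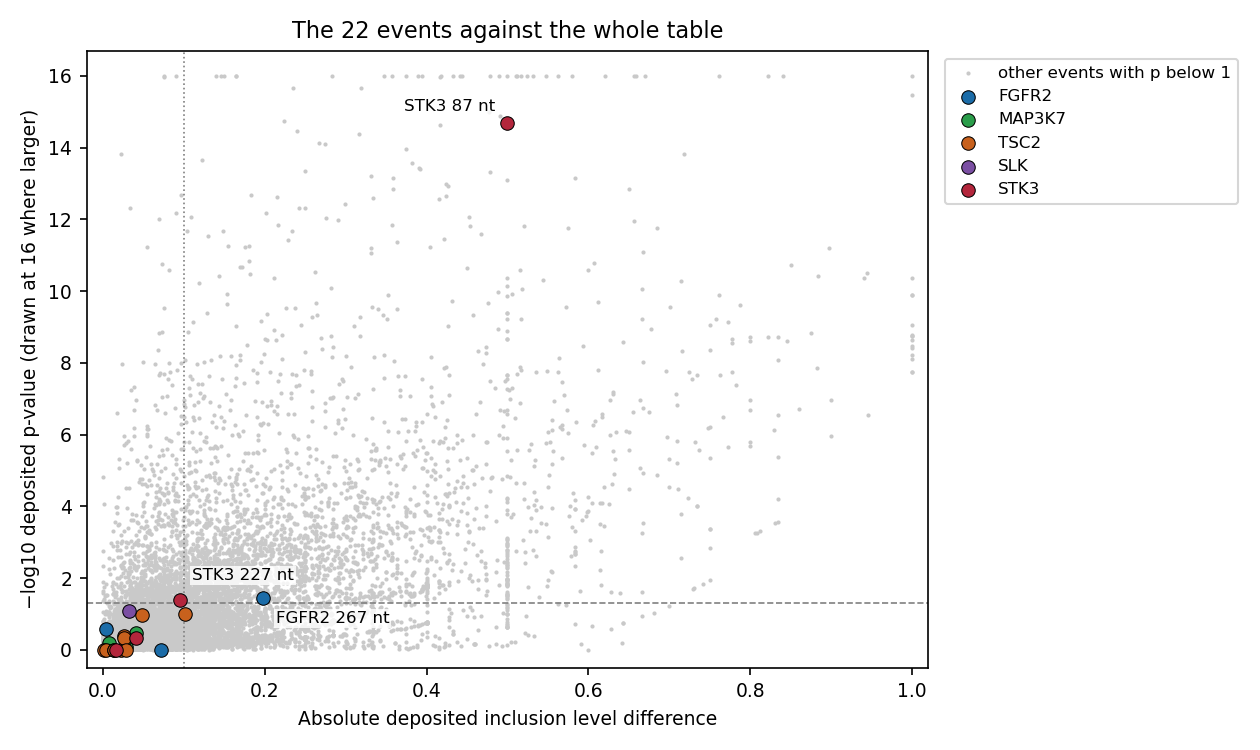
Absolute inclusion difference (x axis) against −log10 of the p-value (y axis), both as deposited, for the 22 events (coloured by gene) and all other events with a p-value below 1 (grey); the dotted line marks a difference of 0.1, the dashed line an unadjusted p-value of 0.05, and the 38 events with a p-value listed as 0 are drawn at 16. The grey column at a difference of 0.5 holds part of the 672 events of exactly that size, and STK3 (87 nt) lies on it, near the top; the other labelled points are FGFR2 (267 nt) and STK3 (227 nt), just above the dashed line, and the other 19 events lie below it.

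Other genes of the same pathways were taken from a list of 70, of which 53 had events, 234 in all. At least 1 event passed in 10 of the 53 genes (18.9%), and in 13.7% of all genes of the table. By event, 12 of the 234 passed (5.13%), beside 5.15% of the table. By pathway, the count was 5 of 12 genes for FGF receptor signalling, 2 of 13 for TSC and mTORC1, 3 of 18 for Hippo and STE20 kinases, and 0 of 10 for the TAK1 complex and its targets. An unadjusted p-value under 0.05 in the authors' deposited table was given to 8 of 40, 3 of 75, 14 of 90 and 5 of 29 events of these groups, in that order, and to 12% of all events. The lowest p-value of the TAK1 group was 0.00462 in the authors' deposited table. The first set was higher in FGFR1, FGFR4, SHC1, TBC1D7 and TEAD2, and the second set in FGFR3, GAB1, LATS1, NF2 and RPTOR. The median absolute difference over the 234 events was 0.0355.

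From that list, 1 exon was compared by sequence with an FGFR2 exon, the exon of FGFR1 for its own first loop. It is also 267 nt long and has the same layout, with a long intron before it (27407 nt) and a short one after it (1246 nt), and 49.1% of its bases equal those of the FGFR2 exon at the same position. In the authors' deposited table the FGFR1 exon was higher in the first set by 0.241 with an FDR of 0.0169, and passed. The FGFR2 exon, higher in the same set by 0.198, did not pass; whether the exons of the receptors differ in their change was not tested.

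Elsewhere on the list, the authors' deposited table gave -0.386 (FDR 5.23e-05) for a 90-nt exon of GAB1, an adaptor that acts below FGF receptors. TBC1D7, the third subunit of the complex formed by TSC1 and TSC2, had 0.163 (FDR 0.00241) for an 81-nt exon in the authors' deposited table. LATS1, the kinase that STK3 activates, had -0.146 (FDR 2.44e-05) for a 95-nt exon in the authors' deposited table. For a 45-nt exon of NF2, whose product merlin promotes Hippo signalling, the authors' deposited table gave -0.118 (FDR 1.07e-05). The transcription factor TEAD2 had 3 passing events, from 0.259 to 0.438 in the authors' deposited table. The smaller passing differences in the authors' deposited table were 0.11 for SHC1 and -0.102 for RPTOR, and FGFR4 and FGFR3 had 0.274 and -0.17.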

How the data were processed

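The authors' deposited table is a skipped-exon output in the rMATS format, per the file headers; STAR 2.7.3a and hg19 are named in the submitters' processing notes without a role, and the rMATS version, read filters and annotation are not given in the sources used here. Its p-value and FDR, as deposited, test a difference between 2 sets of libraries, and the FDR equalled a Benjamini-Hochberg adjustment over 31408 events (largest gap 1.11e-16). The inclusion difference and the effective lengths are used as the authors deposited them; the sign was read as first minus second set, the convention of that format. The 6 columns of values per library name no sample of the labels and were left unread, so depth and coverage were not examined and no count model was run.

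Exons were matched to GENCODE 29 by gene identifier, exon length and both flanking intron lengths, which used no coordinate; 20 of 22 events matched, and the other 2 matched by 1 intron. Sequence, coding status and the effect of removal were computed from the matched transcript. All events of the 5 genes are named, and of the pathway list every gene with a passing event. Members and lists were chosen with earlier results of these data known. The code for the call rule was run on simulated p-values and differences with planted events well beyond its limits. That checks the code only, and not the calls made here. Python 3.11.15, pandas 2.3.3, numpy 2.4.6 and matplotlib 3.10.9 were used.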

Additional observations from a re-analysis of the deposited data

How the results depend on the processing

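The call of each of the 22 events was the same under the 5 alternatives run: an FDR limit of 0.01 or 0.1, no minimum difference, a minimum of 0.2, and a Bonferroni correction over the table. Under each, 1 event and 1 exon of the 5 genes passed. With the smallest p-value per exon, multiplied by how many events the exon has and adjusted over exons, 1 exon passed as well. All of these settings reuse the deposited p-values and differences, so they are not independent checks of the STK3 call. Of the pathway list, 4 genes passed at a minimum difference of 0.2 and 4 under the Bonferroni correction, against 10; the stricter limits lower these counts by construction. The whole table had 472 passing events under the Bonferroni correction, against 1619. Matching by 1 intron length raised the matched events from 20 to 22. The labels pair no WT clone with an RBFOX2 KO clone, so no paired analysis was run. Leaving out each clone and a minimum of junction reads were not run, since the columns of values per library were left unused; how far 1 clone decides the STK3 call is not shown.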
